A study of Arabidopsis thaliana with 6 samples.

Results

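Across 3 lines of Arabidopsis, 10 transcripts are described that stood far lower after 3 h at 4 °C than after 3 h at 20 °C. The 10 genes were chosen by the temperature difference measured on these same arrays, among probe sets that the annotation pairs with exactly 1 gene. They come from 7343 such named probe sets among the 13648 that passed a filter on low values, and all 10 passed it. The filter took the mean over the 6 arrays, so a gene could pass through its 20 °C values alone. The lines were sfr6, cls8 and the wild type. Both mutants were obtained with EMS in the Col-0 background, which is also that of the wild type. The sfr6 mutant is sensitive to freezing and lacks a subunit of Mediator, the complex that links transcription factors to RNA polymerase II. The cls8 mutant is sensitive to chilling and carries a faulty ribonucleotide reductase large subunit, part of the enzyme that makes the building blocks of DNA. Whole seedlings, 7 days old and grown on MS plates at 20 °C after 4 days of stratification at 4 °C, were moved in the light to either temperature. Each of the 6 Affymetrix ATH1 arrays received RNA from 40 to 60 pooled plants, with 1 array for each line at each temperature, so no group had a replicate and the 3 lines stand in for replicates of a temperature. The p-values given below therefore rest on the spread between the responses of the lines, together with a prior spread that limma takes from all probe sets tested. They do not measure the spread between arrays or pools of plants of the same group.

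A transcript level falls when the RNA already present is broken down faster than new RNA is made, so that a fall within hours also needs turnover of the existing RNA. Cold research in Arabidopsis has dealt mostly with transcripts that rise, such as the targets of the CBF factors, and less is known of those that fall. Only some of the 10 proteins belong to a family with a known activity. AT5G19120 belongs to the aspartyl proteases, AT2G32150 to the hydrolases of the haloacid dehalogenase type, and AT3G26510 carries a PB1 domain, a module through which proteins bind each other. AT4G28240 is annotated as a wound-responsive protein, AT5G03230 as a senescence regulator with a domain of unknown function, and AT2G20670 holds another such domain. AT3G56360, AT3G52480, AT4G10910 and AT3G06070 are proteins of unknown function. The 10 genes are spread over the genome, with 4 on chromosome 3, 2 each on chromosomes 2, 4 and 5, and 0 on chromosome 1.

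The arrays were alike in overall brightness, with a median intensity of 41.7 to 45.2 and a trimmed mean of 100.01 on each. The number of outlier cells that the labels give was 1101 for sfr6 and 922 for cls8 at 20 °C, and 406 to 517 for the other 4 arrays. The ratio of the 3′ to the 5′ GAPDH control was at most 1.31 on 5 arrays and 1.77 for the wild type at 20 °C. The 25S ribosomal RNA control read 481.5 for cls8 at 20 °C and 1424 to 2716 elsewhere. The part of these array differences in the results was not tested. Seedlings hold shoot and root, and both were present by their markers, with intensities of 2409 to 4433 for the shoot genes RCA, LHCB4.1 and LHCB4.2 and of 2585 to 3418 for the root gene PYK10. The filter kept 4 of 13 shoot and leaf markers, 2 of 5 root markers and 1 of 5 markers of dividing cells. None of these 7 passed limma for temperature, with log2 differences of -0.34 for AUR1 at one end and 0.09 for PYK10 at the other. In whole seedlings, fewer cells of a type and less RNA per cell cannot be told apart.

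The first comparison asked how far each transcript stood below its 20 °C level at 4 °C. Because this contrast chose the genes, its values are a description and carry no test. For all 10 genes the 3 arrays at 4 °C lay below the 3 arrays at 20 °C with no overlap, which their choice favours. The share of all probe sets without such overlap was not counted. The 10 passed the limma threshold, which their choice by this contrast largely fixes and which is no test of them. Of all probe sets tested, 9.25% passed as lower. Fitted log2 differences, 4 °C minus 20 °C, ran from -3.07 to -1.79 with a median of -2.18, against a median of -0.04 over all 13648 probe sets. The intensity left at 4 °C, as a share of that at 20 °C in the same line, had a median over the 10 genes of 21.6% in sfr6, 13.1% in cls8 and 10.7% in the wild type.

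**Figure D1:**
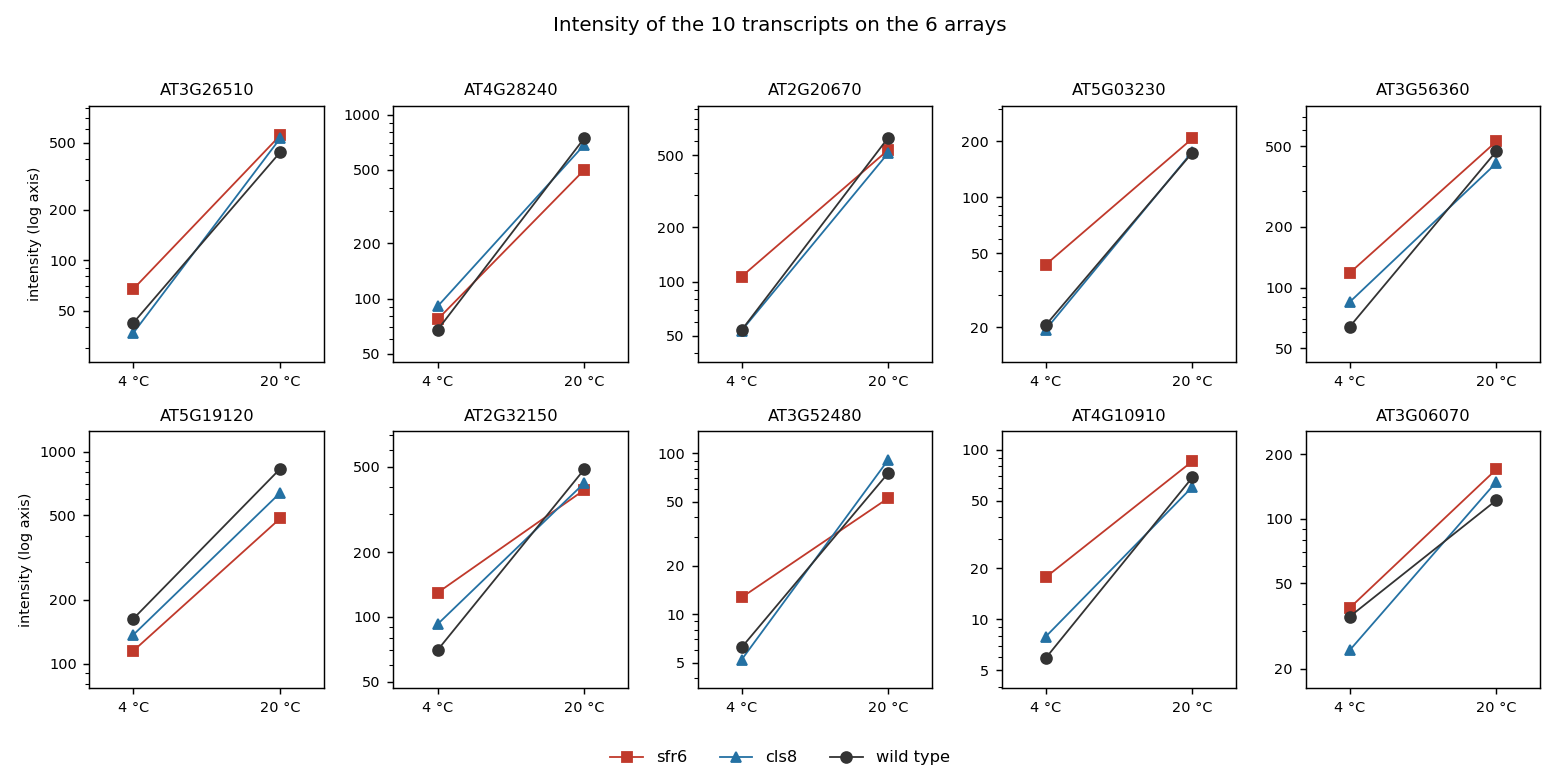
Intensity of each transcript (vertical log axis, range set per panel) at 4 °C and at 20 °C, with 1 point for each array and a line joining the 2 arrays of sfr6, cls8 or the wild type. In all 10 panels the 3 points at 4 °C lie below the 3 points at 20 °C, which the choice of the genes by temperature favours. In 8 panels the sfr6 point is the highest at 4 °C.

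Among the genes with a known family or annotation, AT3G26510 had the largest fall. Its intensity at 4 °C was 67.4 in sfr6, 36.9 in cls8 and 42.4 in the wild type, against 553.3 in sfr6, 531.5 in cls8 and 439.1 in wild-type seedlings at 20 °C. The PB1-domain transcript was thus at 6.94% to 12.2% of its 20 °C intensity in every line, with the smallest share in cls8. The fitted log2 difference was -3.07 ± 0.13 (SE, n = 3 pairs of arrays). Its gene overlaps AT3G26512 in the annotation, which has no named probe set.

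AT2G32150, the hydrolase, read 129.6 in sfr6, 92.5 in cls8 and 70.1 in wild-type seedlings at 4 °C, against 389.7 in sfr6, 419.6 in cls8 and 486.2 in wild-type seedlings at 20 °C. The order of the lines at 4 °C was thus the opposite of that at 20 °C. Its share left ranged from 14.4% in the wild type to 33.3% in sfr6, the highest share of any of the 10 genes in sfr6, and its fitted log2 difference was -2.03 ± 0.17 (SE). AT5G19120, the aspartyl protease, kept the same order of lines at both temperatures. It read 115 in sfr6, 136.9 in cls8 and 163 in wild-type seedlings at 4 °C, against 484.3 in sfr6, 639.4 in cls8 and 830.4 in wild-type seedlings at 20 °C. The fitted log2 difference was -2.11 ± 0.10 (SE), and the share left differed little between lines, at 23.8% in sfr6, 21.4% in cls8 and 19.6% in the wild type.

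The wound-responsive AT4G28240 read 77 in sfr6, 90.6 in cls8 and 67.5 in wild-type seedlings at 4 °C, against 500.5 in sfr6, 685 in cls8 and 744.5 in wild-type seedlings at 20 °C. The lines averaged 78.4 ± 11.6 at 4 °C and 643 ± 127 at 20 °C (SD, n = 3), and the line order at 20 °C was not kept at 4 °C. The fitted log2 difference was -2.82 ± 0.13 (SE). AT2G20670 read 106.6 in sfr6, 53.5 in cls8 and 53.8 in wild-type seedlings at 4 °C, against 537.3 in sfr6, 517.3 in cls8 and 628.5 in wild-type seedlings at 20 °C. Here cls8 and the wild type were level at 4 °C and sfr6 stood above both, while at 20 °C sfr6 lay between them. The fitted log2 difference was -2.80 ± 0.18 (SE). AT5G03230, annotated as a senescence regulator, read 43.4 in sfr6, 19.4 in cls8 and 20.5 in wild-type seedlings at 4 °C, against 207.7 in sfr6, 176.6 in cls8 and 174.2 in wild-type seedlings at 20 °C. Its fitted log2 difference was -2.30 ± 0.13 (SE). It showed the same split at 4 °C, with cls8 and the wild type side by side and sfr6 higher.

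Of the genes with unknown function, AT3G56360 had the largest fitted fall at the pseudocount used, a log2 difference of -2.26 ± 0.13 (SE). Without a pseudocount it stood at -2.44, and the falls of AT3G52480 at -3.27 and AT4G10910 at -2.92 were larger. AT3G56360 read 118.1 in sfr6, 84.8 in cls8 and 64 in wild-type seedlings at 4 °C, against 528 in sfr6, 412.6 in cls8 and 472.5 in wild-type seedlings at 20 °C. At 4 °C the wild type was the lowest line, and at 20 °C cls8 was. AT3G06070 read 38.4 in sfr6, 24.4 in cls8 and 35 in wild-type seedlings at 4 °C, against 170.2 in sfr6, 148.9 in cls8 and 122.1 in wild-type seedlings at 20 °C. It was the gene with the smallest fall in the wild type, where 28.7% of the intensity was left, against 22.6% in sfr6 and 16.4% in cls8, and its fitted log2 difference was -1.79 ± 0.13 (SE).

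AT3G52480 and AT4G10910 were dim at 4 °C, below or near the pseudocount of 14.1 that was added before taking logs. Both owed their pass of the filter to their 20 °C values. AT3G52480 read 12.7 in sfr6, 5.2 in cls8 and 6.2 in wild-type seedlings at 4 °C, against 52.8 in sfr6, 91.5 in cls8 and 75.7 in wild-type seedlings at 20 °C. AT4G10910 read 17.7 in sfr6, 7.9 in cls8 and 5.9 in wild-type seedlings at 4 °C, against 85.8 in sfr6, 60.6 in cls8 and 68.9 in wild-type seedlings at 20 °C. Both were highest in sfr6 at 4 °C. Their fitted log2 differences were -1.97 ± 0.20 and -1.82 ± 0.13 (SE). The size of these depends on the pseudocount, since without one they were -3.27 ± 0.36 and -2.92 ± 0.26 (SE). With a larger pseudocount of 43.6, the median intensity, they were -1.17 and -1.09.

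The ranking behind the choice ran over all named probe sets, and AT3G26510 was first in it and AT3G06070 was at rank 12. Among all kept probe sets, named or not, AT3G06070 was at rank 23. Ranks 4 and 10 among the named genes belong to the F-box proteins AT1G23390 and AT3G23880, which are not among the 10. Just inside the limit were AT4G10910 at -1.82 and AT3G06070 at -1.79, and just outside were AT2G24550 at -1.74 and AT3G06780 at -1.70. At this pseudocount the limit thus fell within a run of close values. The order depends on the pseudocount, since without one AT4G10910 stood at -2.92, a larger fall than that of AT5G03230 at -2.84. With the median as pseudocount AT3G52480 stood at -1.17 and AT4G10910 at -1.09. Both then fell less than AKINBETA1, a gene outside the 10 described below, at -1.26.

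The next comparison asked how the fall of each transcript differed between lines. All 10 fell in each of the 3 lines, and the fall was smallest in sfr6 for 9 genes and in the wild type for AT3G06070. The largest fall was in the wild type for 6 genes and in cls8 for 4. The median log2 fold of the 10 genes was -1.95 in sfr6, -2.28 in cls8 and -2.51 in the wild type, and over all kept probe sets it was -0.01 in sfr6, -0.05 in cls8 and -0.04 in the wild type. Outside the 10, 122 other probe sets passed limma as lower and fell at least 2-fold over the lines. Their median log2 fold was -1.13 in sfr6, -1.25 in cls8 and -1.39 in the wild type, so the same order of lines held there. A limma pass favours probe sets whose lines responded alike, which bears on every comparison with these 122. The line-wise folds each come from 1 pair of arrays.

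**Figure D2:**
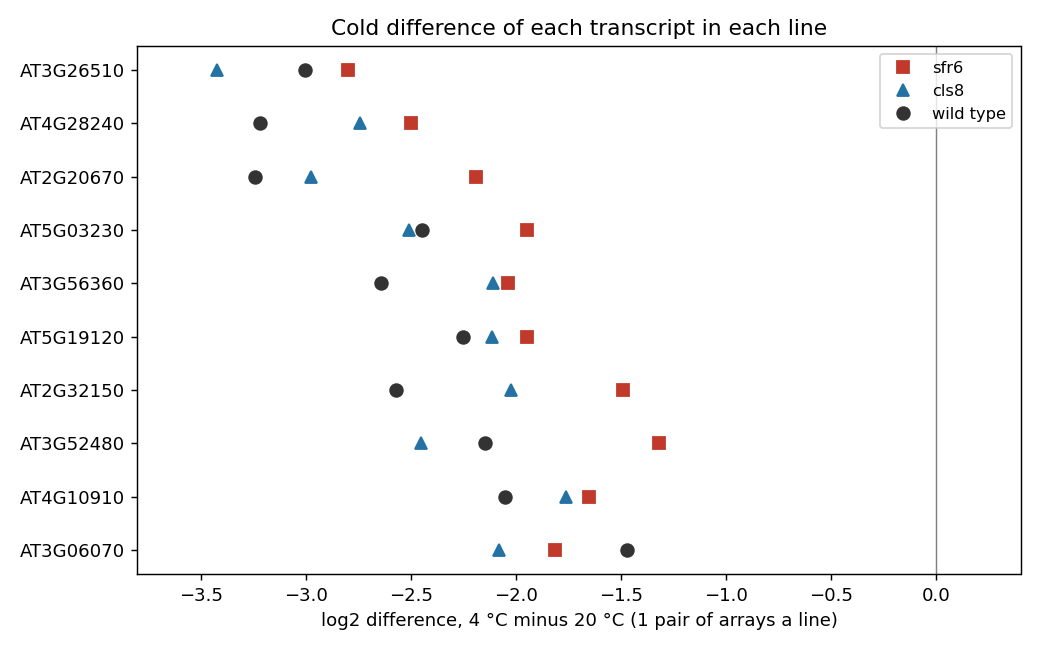
Log2 difference between 4 °C and 20 °C (horizontal axis) for each transcript (rows), with 1 symbol for each of sfr6, cls8 and the wild type. All symbols lie left of 0, between -3.42 and -1.32, and the sfr6 symbol is the one nearest to 0 in 9 of 10 rows.

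A limma fit with a cold term of its own for sfr6 compared its fall with the mean of the other lines. This leaves 1 residual degree of freedom beside the prior. The rule behind the choice used the mean over the lines and not the difference between them. The difference was above 0, meaning a smaller fall in sfr6, for 9 of 10 genes, with a median of 0.45 on the log2 scale. It was above 0 for 53.9% of all kept probe sets, with a median of 0.03, and for 87 of the 122 other probe sets lower at least 2-fold (71.3%, median 0.26). AT3G52480 had a difference of 0.98 ± 0.27 (SE), AT2G20670 one of 0.92 ± 0.22 and AT2G32150 one of 0.81 ± 0.26. Their order depends on the pseudocount, since AT3G52480 stood at 1.82 without one and at 0.59 with the median, where AT2G20670 stood at 0.71 and AT2G32150 at 0.67. None of the 10 passed limma (lowest adjusted p = 0.523, for AT2G20670), and 0.0% of all probe sets did, 0 of 13648. At an unadjusted p under 0.05 there were 3 of the 10, the 3 genes just named, against 4.9% of all probe sets and 32.0% of the 122 others that fell at least 2-fold (39 of 122). The share among the 10 was thus close to that among the other strong falls. The sfr6 array at 20 °C is also the one with the most outlier cells, and its part in these values was not tested.

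The same fit for cls8 gave differences on both sides of 0, below it for 6 genes and above it for 4, with a median of -0.14. AT3G52480 at -0.72 ± 0.35 (SE) and AT3G26510 at -0.52 ± 0.23 had the largest, in the direction of a deeper fall in cls8. AT3G52480, dim at 4 °C, stood at -1.30 with no pseudocount and at -0.45 with the median. None of the 10 passed limma (lowest adjusted p = 0.687), where 0.0147% of all probe sets passed, which is 2 of 13648. At an unadjusted p under 0.05 there was 1 of the 10, AT3G26510, against 6.94% of all probe sets. For AT3G56360 the difference was 0.23, with a 95% interval from -0.34 to 0.79, and for AT3G52480 the interval ran from -1.48 to 0.04. The interval included 0 for every gene but AT3G26510, so the direction of the other genes is not settled. For AT3G26510 it ran from -1.01 to -0.03, without adjustment for the number of genes. The 4 shoot and leaf markers had cold differences of 0.21 to 0.88 in cls8 by the same fit, 0 of which passed limma and 3 of which, RCA, LHCB4.1 and LHCB4.2, had an unadjusted p under 0.05. The part of this in the values above was not tested.

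The line comparisons asked whether a mutant differed from the wild type in the level of these transcripts over both temperatures, which the rule did not use, although the line and temperature terms share 1 estimate of the spread. Between sfr6 and the wild type, 0 of the 10 passed limma, where 1.34% of all probe sets passed (183 of 13648). At an unadjusted p under 0.05 there were 5 of the 10, against 11.5% of all probe sets and 23.8% of the 122 others that fell at least 2-fold (29 of 122), of which 5 passed after adjustment. Of these, AT5G03230 had a log2 difference of 0.48 ± 0.16 (SE), AT4G10910 one of 0.47 ± 0.16, AT3G56360 one of 0.46 ± 0.16 and AT3G26510 one of 0.43 ± 0.15. With 1 array left out these ranged from 0.22 to 0.75 for AT5G03230, from 0.30 to 0.64 for AT4G10910, from 0.17 to 0.74 for AT3G56360 and from 0.22 to 0.63 for AT3G26510. AT4G10910 stood at 0.95 with no pseudocount and at 0.26 with the median. The fifth was AT5G19120, which was lower in sfr6 at both temperatures, with a log2 difference of -0.61 ± 0.12 (limma adjusted p = 0.0545). Left-out arrays moved 2 of these genes across the threshold. AT5G19120 passed without the cls8 array at 20 °C (limma adjusted p = 0.0237) or at 4 °C (limma adjusted p = 0.0231), and over the other 4 left-out arrays its limma adjusted p ran from 0.0536 to 0.322. AT3G56360 passed without the wild-type array at 20 °C, at 0.74 (limma adjusted p = 0.0433), and stood at 0.17 without the wild-type array at 4 °C (limma adjusted p = 0.84).

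Seen by temperature, the sfr6 values were above the wild type for 9 of 10 genes at 4 °C, with a median log2 difference of 0.60 and a highest of 0.83 for AT2G20670. At 20 °C they were above it for 5 of 10, with a median of -0.03. Over all kept probe sets, 53.1% were above the wild type in sfr6 at 4 °C and 49.5% at 20 °C. The exception at 4 °C was AT5G19120, at -0.46. Each of these values comes from 1 array against 1 array and has no test.

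Between cls8 and the wild type, 0 of the 10 passed limma, where 0.117% of all probe sets passed (16 of 13648). At an unadjusted p under 0.05 there was 1, AT5G19120, against 6.4% of all probe sets. AT5G19120 stood at -0.30 ± 0.12 on the log2 scale (SE, limma adjusted p = 0.759), and the other 9 lay between -0.14 for AT2G20670 and 0.12 for AT4G28240. The 95% interval was -0.29 to 0.41 for AT3G26510 and -0.63 to 0.35 for AT2G20670, which leaves room for differences of that size. Both cls8 arrays bear the word repeat in their titles, in a form that differs between the temperatures. What was repeated is not stated. Whatever the word marks cannot be told apart from the genotype. As its form differs, it also cannot be told apart from the cold response of cls8. That response enters the temperature difference over the lines, so the limit reaches there too. The sfr6 and cls8 comparisons share the wild-type arrays.

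**Figure D3:**
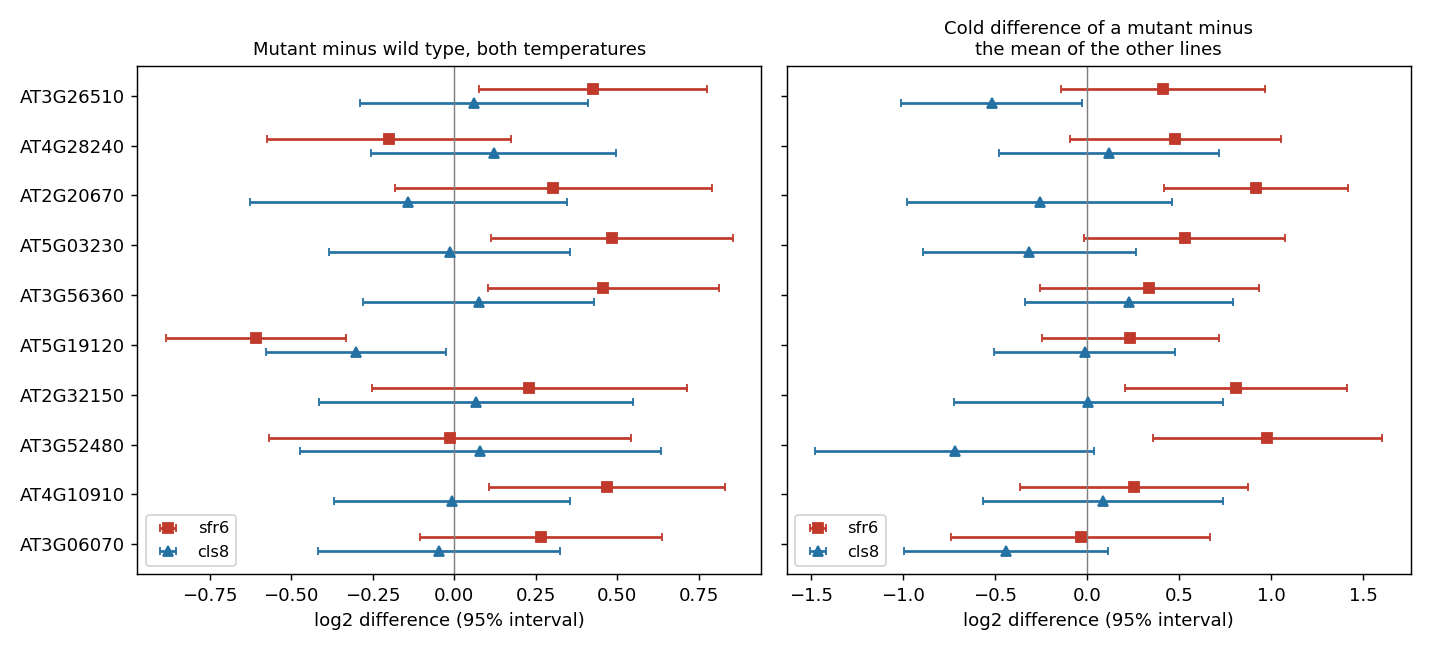
Left, log2 difference of sfr6 and of cls8 from the wild type over both temperatures. Right, cold difference of sfr6 and of cls8 minus the mean of the other lines. Symbols are limma estimates and bars are 95% intervals without adjustment for the number of genes. The sfr6 symbols at the right lie above 0 for 9 of 10 genes, and none of the 10 genes passed an adjusted p of 0.05 in any of the 4 comparisons.

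Plants short of carbon, as in prolonged darkness, raise a well-known set of genes through the kinase SnRK1, among them enzymes that break down branched-chain amino acids. A list of 23 such dark- and starvation-induced genes was examined next to the 10. The genes were listed by what they are known for, with earlier results of these data known. Only 5 of the 23 had a named probe set, and all 5 passed the filter. Of these, 4 fell at 4 °C in limma and 0 rose, against 9.25% of all probe sets tested that were lower and 9.58% that were higher, and their median log2 difference was -0.84 against -0.04 over all probe sets. With 5 genes seen, the list says little about the other 18.

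AKINBETA1, a regulatory subunit of SnRK1, read 95.3 in sfr6, 105.4 in cls8 and 114.3 in wild-type seedlings at 4 °C, against 271.6 in sfr6, 330.9 in cls8 and 334.2 in wild-type seedlings at 20 °C. Its log2 difference was -1.45 ± 0.09 (SE, limma adjusted p = 2.52e-05). The subunits of methylcrotonoyl-CoA carboxylase, an enzyme of leucine breakdown, fell too. MCCA read 88.1 in sfr6, 94.6 in cls8 and 71.1 in wild-type seedlings at 4 °C, against 202.9 in sfr6, 218.2 in cls8 and 254.4 in wild-type seedlings at 20 °C, at a log2 difference of -1.28 ± 0.13 (SE, limma adjusted p = 3.04e-04). MCCB read 222.3 in sfr6, 155.7 in cls8 and 177.4 in wild-type seedlings at 4 °C, against 415.1 in sfr6, 348.5 in cls8 and 270.9 in wild-type seedlings at 20 °C, at a log2 difference of -0.84 ± 0.11 (SE, limma adjusted p = 0.00142). The fall of MCCA was thus larger in the wild type than in the mutants, and that of MCCB was smaller. IVD, isovaleryl-CoA dehydrogenase, acts one step earlier in the same pathway. It read 99 in sfr6, 77.3 in cls8 and 64.9 in wild-type seedlings at 4 °C, against 127.7 in sfr6, 132 in cls8 and 149.6 in wild-type seedlings at 20 °C, with a log2 difference of -0.68 ± 0.14 (limma adjusted p = 0.01). The fall of IVD was thus smallest in sfr6, as was that of 9 of the 10 transcripts. By narrow margins this also held for AKINBETA1 (-1.38 in sfr6, -1.44 in the wild type) and MCCA (-1.09 in sfr6, -1.10 in cls8), but not for MCCB. The fall of IVD no longer passed when all 22746 plant probe sets were kept (limma adjusted p = 0.0596).

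PPDK, pyruvate orthophosphate dikinase, was the exception in the list. It read 203.6 in sfr6, 160.6 in cls8 and 169.8 in wild-type seedlings at 4 °C, against 201.2 in sfr6, 105.5 in cls8 and 104.9 in wild-type seedlings at 20 °C. Its log2 difference of 0.40 ± 0.13 (SE) did not pass (limma adjusted p = 0.0643). It passed as higher at 0.59 without the sfr6 array at 20 °C (limma adjusted p = 0.0194) or at 4 °C (limma adjusted p = 0.0187). None of the 5 genes passed limma for sfr6 or cls8 against the wild type. Of 5 genes known to be induced by sugar, 1 had a named probe set (APL3) and 0 passed the filter.

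**Figure D4:**
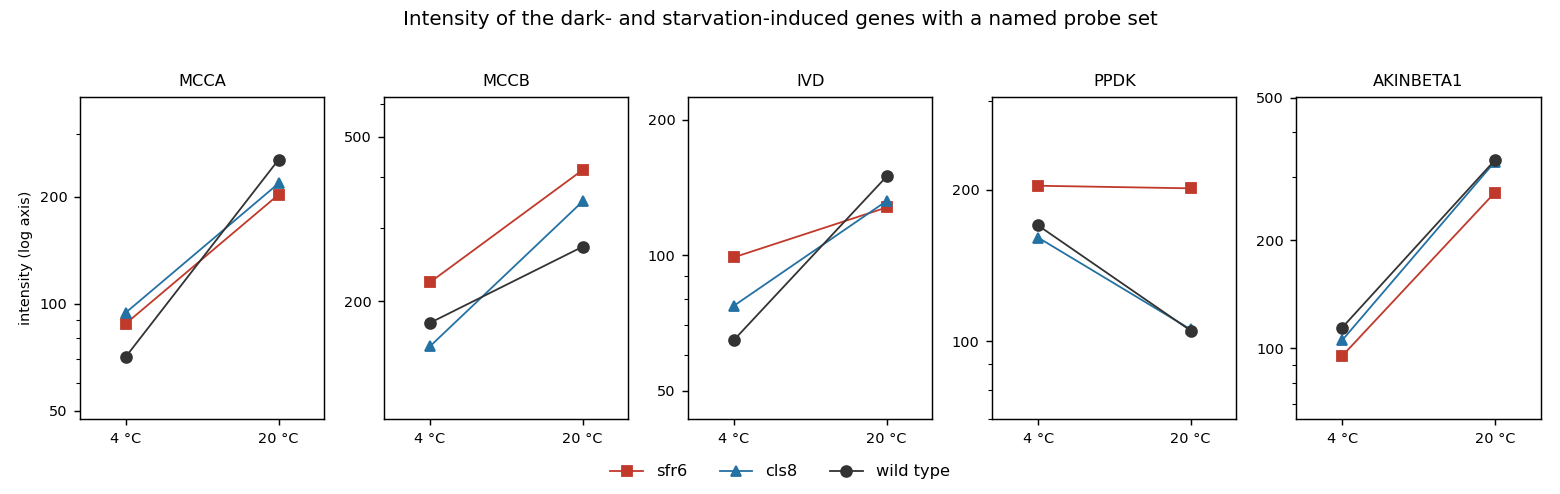
Intensity (vertical log axis, range set per panel) of the 5 dark- and starvation-induced genes with a named probe set, at 4 °C and at 20 °C in sfr6, cls8 and the wild type, with 1 point for each array. MCCA, MCCB, IVD and AKINBETA1 lie lower at 4 °C in all 3 lines, and PPDK does not.

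Likeness to the 10 transcripts was measured as Pearson's r over the 6 arrays between a gene's log2 values and the mean of the 10 centred log2 patterns. The mean pattern stood at -0.86 in sfr6, -1.28 in cls8 and -1.31 in wild-type seedlings at 4 °C, and at 1.11 in sfr6, 1.14 in cls8 and 1.19 in wild-type seedlings at 20 °C. The 10 genes themselves had r between 0.955 for AT5G19120 and 0.997 for AT2G20670, which follows in part from their share in the mean. Of 7333 other named genes, 506 had r of at least 0.9. How much of r comes from the step between temperatures and how much from the lines was not separated.

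The 5 other named genes with the highest r were AT1G24440 (r = 0.999), AT2G25200 (0.998), AT4G32530 (0.998), AT1G63840 (0.997) and AT3G20680 (0.995). Their falls were smaller than those of the 10. AT1G24440 read 58.4 in sfr6, 49.4 in cls8 and 48.2 in wild-type seedlings at 4 °C, against 123.8 in sfr6, 133.6 in cls8 and 136.2 in wild-type seedlings at 20 °C, a log2 difference of -1.14. AT2G25200 had a log2 difference of -1.52, AT1G63840 one of -0.80, AT3G20680 one of -0.56 and AT4G32530 one of -0.28. The difference of AT4G32530 did not pass (limma adjusted p = 0.0678). All 5 read highest in sfr6 at 4 °C, an order that the choice by likeness favours, since the mean pattern has it too.

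**Figure D5:**
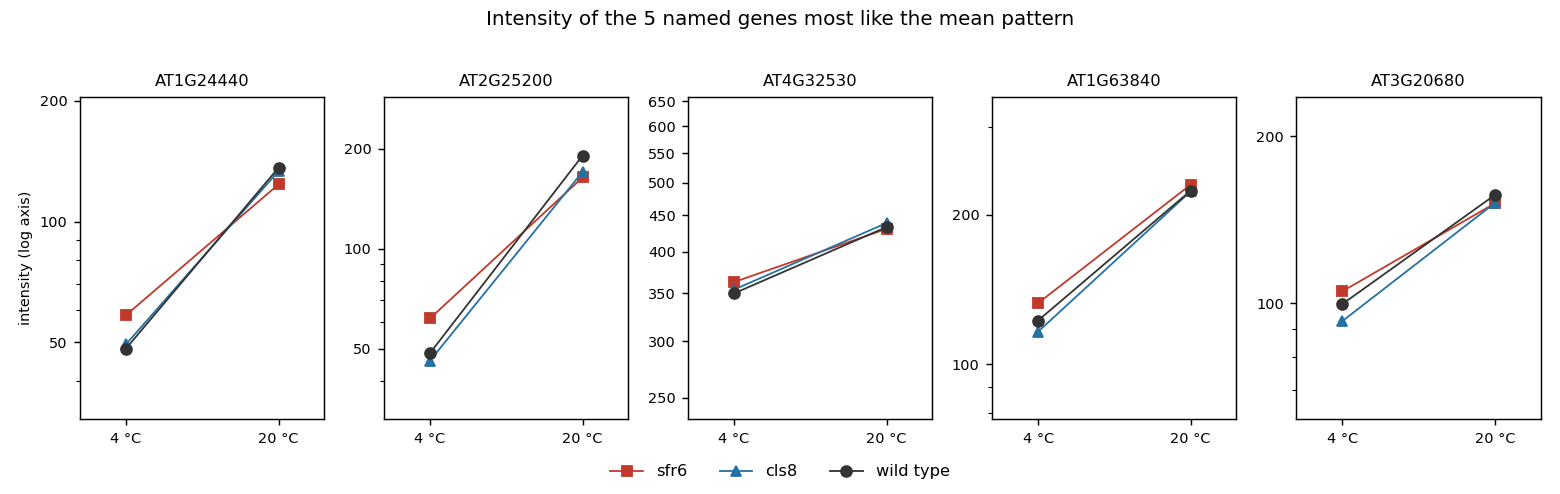
Intensity (vertical log axis, range set per panel) of the 5 named genes most like the mean pattern, at 4 °C and at 20 °C in sfr6, cls8 and the wild type, with 1 point for each array. The 3 points at 4 °C lie below the 3 at 20 °C in every panel and sfr6 is the highest line at 4 °C in all 5, as in the mean pattern by which they were chosen.

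Genes lying next to the 10 on the chromosome were looked at last, as a feature that the rule did not use. Of 20 nearest protein-coding genes that do not overlap a member, 11 were named on the array and 6 passed the filter. In limma 1 of the 6 was lower at 4 °C and 1 was higher, against 9.25% of all probe sets tested that were lower and 9.58% that were higher. The median log2 difference of the 6 was -0.07, against -0.04 over all probe sets. With 6 genes, these counts say little about the neighbours. The lower one was AT4G10925, next to AT4G10910, which read 80.8 in sfr6, 72.4 in cls8 and 66.9 in wild-type seedlings at 4 °C, against 138.2 in sfr6, 129.2 in cls8 and 165.2 in wild-type seedlings at 20 °C. Its log2 difference was -0.85 (limma adjusted p = 0.00172). The higher one was AT3G56370, next to AT3G56360, with a log2 difference of 0.62 (limma adjusted p = 0.0048).

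Annotated genes overlap 4 of the 10. KELP, a transcriptional coactivator whose gene overlaps AT4G10910, read 125.3 in sfr6, 147 in cls8 and 172.9 in wild-type seedlings at 4 °C, against 145 in sfr6, 176.4 in cls8 and 140.8 in wild-type seedlings at 20 °C. Its groups overlapped, and its log2 difference was -0.05 (limma adjusted p = 0.799), against -1.82 for AT4G10910. AT3G52470, whose gene overlaps AT3G52480, stood at 0.22 on the log2 scale (limma adjusted p = 0.127), against -1.97 for AT3G52480. AT4G28230, whose gene overlaps AT4G28240, did not pass the filter and was not tested. It read 11 in sfr6, 19.8 in cls8 and 19 in wild-type seedlings at 4 °C, against 25.9 in sfr6, 28.6 in cls8 and 30.7 in wild-type seedlings at 20 °C. Its groups did not overlap, and 42.5% to 69.2% of the intensity was left, against 9.07% to 15.4% for AT4G28240.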

How the data were processed

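The authors deposited 1 intensity value per probe set and array on a linear scale. A mean that trims 2% at either end is 100.01 on each array, as read from the values. The algorithm and software are not stated in the sources used, and detection calls were not used. Of 22810 probe sets, 64 controls were set aside. A platform table gave 1 gene for 13513 probe sets, several for 503 and none for 8730, and RefSeq (TAIR10.1) matched 13436, for names and neighbours alone.

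The scale was log2(intensity + 14.1), the addend being the 25th percentile of all values. The filter kept probe sets with a mean at or above the 40th percentile. limma 3.58.1 in R 4.3.3 (lmFit, eBayes with an intensity trend) fitted line and temperature. The residual degrees of freedom were 2, and the prior added 6.82. Tests were two-sided, adjusted by Benjamini-Hochberg over 13648 probe sets, with a threshold of 0.05. The fits were tested on simulated data. Alternatives were other pseudocounts, no filter, quantile normalization, no trend, no line or temperature term, and each array left out.

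The 10 genes, the lists and the tests were chosen with earlier results of these data known, and the look at neighbouring genes was added after the values were seen. Named genes were the 10, those at the limit of the ranking, the 5 most alike and members of the lists. Protein and promoter sequences were not analysed here.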

Additional observations from a re-analysis of the deposited data

Results flagged for a closer look

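For several of the 10 genes, the difference of a mutant from the wild type pointed in opposite directions at 4 °C and at 20 °C. Each difference comes from 1 array against 1 array, and whether the differences themselves differ was not tested for these pairs. In sfr6, the log2 difference at 4 °C less that at 20 °C was 1.08 for AT2G32150, 1.05 for AT2G20670, 0.83 for AT3G52480 and 0.72 for AT4G28240, and all 4 were above the wild type at 4 °C and below it at 20 °C. In cls8, AT2G32150 (0.55), AT3G56360 (0.53), AT4G28240 (0.48) and AT4G10910 (0.29) were likewise above the wild type at 4 °C and below it at 20 °C. In cls8, AT3G06070 (-0.61), AT3G26510 (-0.42), AT3G52480 (-0.31) and AT5G03230 (-0.0649) were below the wild type at 4 °C and above it at 20 °C, and for AT5G03230 both differences were close to 0, at -0.05 and 0.02.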

How the results depend on the processing

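The 10 genes fell and passed limma for temperature under every alternative run, which their choice on this contrast largely fixes and which is no sign of stability. The count of probe sets passing for temperature, 2570, was 1445 with no filter, 1589 with no block for line, and 1528 to 2290 with 1 array left out. The sfr6 count of 183 was 18 with no filter, 0 with no temperature term (524 at an unadjusted p under 0.05), and 65 to 411 with 1 array left out. The cls8 count of 16 was 4 with no filter, 1 with no temperature term and 14 to 27 with 1 array left out. For a cold term of its own, 1 probe set passed in sfr6 after quantile normalization, and in cls8 5 passed with no pseudocount, 4 with the median as pseudocount, and 0 with no filter, with quantile normalization or with no trend. Of the 10 genes, 0 to 1 passed for sfr6 with 1 array left out. Small differences changed sign. For sfr6 minus the wild type, AT3G52480, at -0.01, was 0.26 with no pseudocount and 0.0112 after quantile normalization. For cls8 minus the wild type, AT4G10910 was 0.12 and 0.0102 under the same settings, and AT3G06070 was 0.0036 with the median as pseudocount. With no pseudocount the cold term was 0.058 for AT3G06070 in sfr6 and -0.0279 for AT4G10910 in cls8. The cause of these changes was not tested. With 1 array left out, the sfr6 difference ranged from -0.50 to 0.10 for AT4G28240, from -0.15 to 0.76 for AT2G20670, from -0.18 to 0.64 for AT2G32150 and from -0.50 to 0.48 for AT3G52480. The cls8 difference ranged from -0.20 to 0.32 for AT3G26510, -0.18 to 0.42 for AT4G28240, -0.47 to 0.19 for AT2G20670, -0.17 to 0.14 for AT5G03230, -0.21 to 0.36 for AT3G56360, -0.34 to 0.47 for AT2G32150, -0.28 to 0.44 for AT3G52480, -0.18 to 0.17 for AT4G10910 and -0.28 to 0.19 for AT3G06070. No measure of signal over background was used, so the 4 °C levels of AT3G52480 and AT4G10910 may be bounds. Protein relatives and promoter motifs were planned and not run.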
